A study of Mus musculus with 12 samples.

Results

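The genes described here encode the invariant chains of the T cell receptor complex (Cd3d, Cd3e, Cd3g and Cd247), the CD8 coreceptor (Cd8a and Cd8b1), the kinases that act first on that complex (Lck and Zap70) and the accessory receptors Cd2 and Cd5. They were chosen as a group with earlier results of these data known and matched by symbol, and all 10 have a row among the 11581 genes of the deposited table. The series holds 12 samples of CD8 T cells from mixed bone marrow chimeras, 3 libraries in each of 4 groups, scurfy or wild type for Foxp3 and unstimulated or given SIINFEKL peptide for 6 h. Recipients were CD45.2+ C57BL/6 J mice, 2 months after reconstitution. In the scurfy groups the marrow came from OT-1 Foxp3Scurfy CD45.1+/2+ donors mixed with CD45.2+ donors, and in the wild-type groups from OT-1 Foxp3wt CD45.1+/2+ donors mixed with CD45.2+ donors. Both groups therefore carry the OT-1 transgenic receptor, which recognises SIINFEKL, and differ in Foxp3, which encodes a transcription factor of regulatory T cells and is mutant in scurfy. How cells of the OT-1 donor were told from those of the other donor, and whether each library is a mouse of its own, are not given in the sources used here. The p-values therefore reflect only how far these samples spread, which may be technical. The comparison is of the 3 unstimulated scurfy with the 3 unstimulated wild-type libraries, and the stimulated samples were not analysed here.

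An antigen receptor on a CD8 T cell is a pair of variable chains with no signalling tail of its own, held in a complex with CD3 delta, CD3 gamma, CD3 epsilon and zeta, the product of Cd247. Delta and gamma each pair with epsilon, zeta pairs with itself, and all of them carry tyrosine motifs. CD8 binds the MHC class I molecule that presents the peptide and brings Lck, which phosphorylates those motifs, and Zap70 then docks on them. CD2 strengthens adhesion and CD5 dampens the signal.

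Values are normalized counts, that is, reads of a gene divided by a size factor for the library, and a log2 fold change is scurfy minus wild type on log2(value + 1). A gene was called where limma's adjusted p over all 11581 genes was under 0.05. The libraries held 8852518 to 23149523 reads over these genes, and each of the 10 genes had 914 to 44161 reads in a library. There is no row for Foxp3, and the genotype labels were not checked in these data. All 8 markers listed for CD8 T cells had a row, with a summed level of 106160 to 113310 in scurfy and 95896 to 99443 in wild type, and 1 of them, Cd3d, was called higher. The list holds the CD3 and CD8 genes described here, so this sum is no independent check of cell identity. Trbc2 was the largest part of it, at 47714 to 51873 in scurfy and 43903 to 48107 in wild type. Of markers of other cells, 1 of 5 for CD4 T cells had a row (Cd4 did not), 2 of 7 for gamma-delta T cells, 7 of 12 for B cells (Ms4a1 and Cd79a did not), 1 of 11 for myeloid cells, 3 of 8 for natural killer cells and 1 of 7 for erythroid cells. The level of a gene without a row is not known. The B cell markers summed to 9895 to 11352 in scurfy and 10971 to 11753 in wild type, which overlap, but Ighm alone made up most of that sum and the list's median log2 fold change was -0.99. The gamma-delta markers summed to 1572 to 2280 and 1246 to 1389, which do not overlap, and neither of their 2 genes was called. Trdc alone made up most of that sum (1531 to 2244 in scurfy, 1199 to 1371 in wild type). The other gene, Cd163l1, overlapped (33.0 to 41.2 and 18.6 to 46.2). The sums for CD4 T cells (47.3 to 80.5 and 45.2 to 67.1) and natural killer cells (342 to 461 and 351 to 413) overlapped. The B cell gene H2-Aa (0 to 15.7 in scurfy, 57.2 to 84.1 in wild type) and the erythroid marker Car2 (101 to 156 and 232 to 315) were lower in scurfy, and the myeloid marker Cst3 (1406 to 1522 and 821 to 1131) was higher. H2-Aa and H2-Ab1, both of the B cell list, were at 0 in at least 1 scurfy library. The part of these cells in the results below was not tested, and in bulk RNA fewer cells of a type and less RNA per cell cannot be told apart.

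Transcripts of the receptor complex did not differ between the genotypes as a block. Cd3d rose 1.69-fold in scurfy cells and Cd2 rose 1.35-fold, and the other 8 genes were not called. Cd3g (log2 fold change 0.46) and Cd3e (0.27) lay above 0, Cd247 (-0.11) and Lck (-0.09) below it, and Cd8b1 was at 0.00. Of the 10 genes 2 were called higher and none lower, where 2.12% of all genes, and 5.80% of the 1828 genes with a mean of at least 1000 normalized counts, were called higher. An unadjusted p was under 0.05 in the higher direction for 5 of the 10 genes, against 9.91% of all genes and 18.9% of those with a mean of at least 1000, and in the lower direction for 0. EdgeR, voom and DESeq2 on recovered reads also called none lower. DESeq2 called 3 higher (Cd3d, Cd2 and Cd3g), where it called 4.15% of genes higher, and edgeR and voom called 2. In 4 of the 10 genes (Cd3d, Cd3g, Cd2 and Cd5) every scurfy library was above every wild-type library, against 13.4% of all genes and 21.1% of those with a mean of at least 1000. Groups apart in either direction were found for 27.1% of all genes. The median log2 fold change was 0.21 over the 10 genes and 0.01 over all genes. On library size alone the median of all genes moved by -0.14, and 169 genes were called higher and 761 lower, in place of 246 and 272; Cd3d was then the only one of the 10 called, at 0.62.

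**Figure D1:**
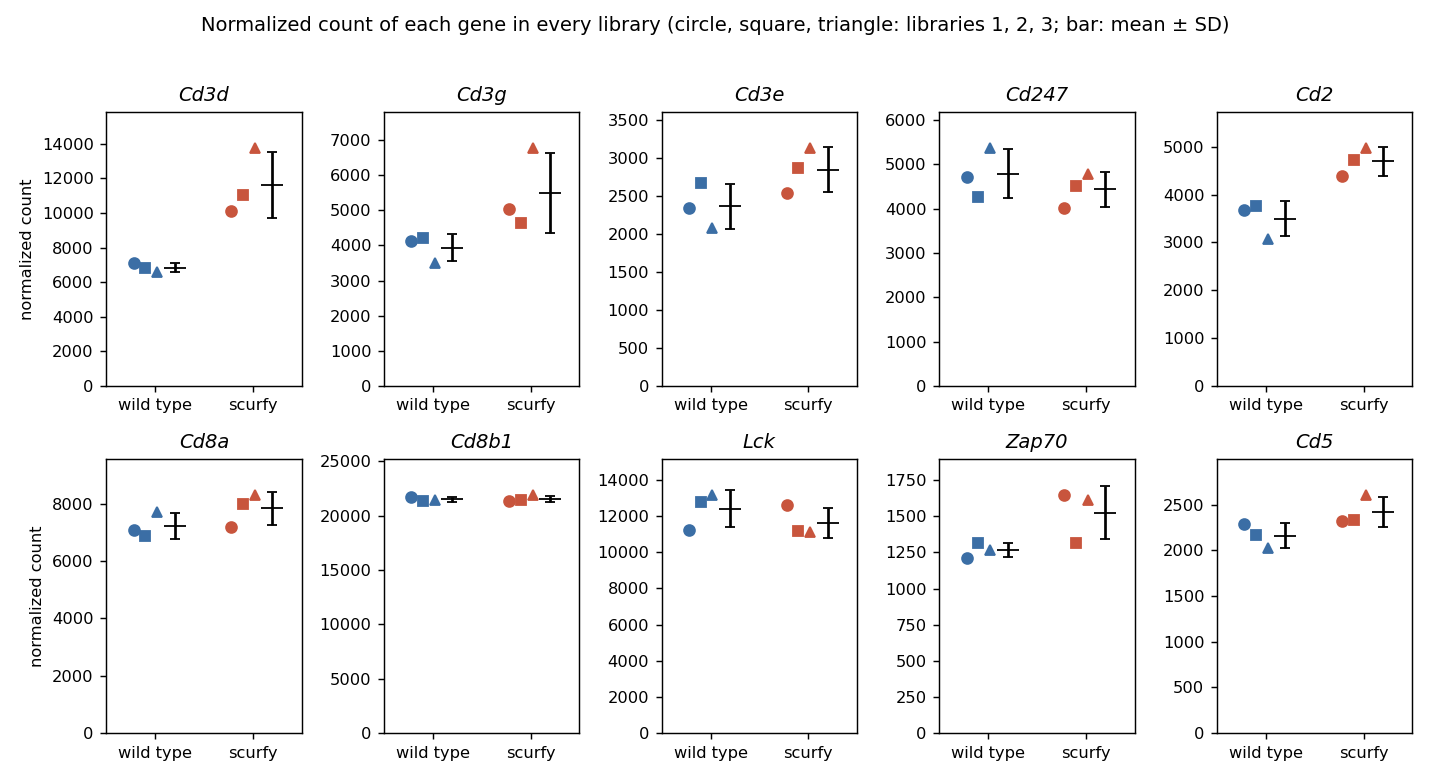
Normalized count (vertical axes, from 0, a scale per gene) of the 10 genes in each of the 3 wild-type (blue) and 3 scurfy (red) unstimulated libraries, with the mean ± SD of each group as a black bar. The scurfy libraries lie above all wild-type libraries for Cd3d, Cd3g, Cd2 and Cd5, whereas Cd8b1 stays between 21344 and 21911 in all 6.

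Cd3d, Cd3g and Cd3e lie next to each other on chromosome 9. Their starts are shown because of the 3 neighbours only Cd3d was called by limma. DESeq2 called Cd3g too, and limma's 95% intervals of Cd3d (0.50 to 1.01) and Cd3g (0.18 to 0.75) overlap, so the neighbours are not shown to differ by the call. In RefSeq on GRCm38.p6 (a later build than the NCBIM37 of the submitters' notes) Cd3g and Cd3d are transcribed away from each other from starts 1355 bases apart, and the start of Cd3e lies 27825 bases beyond that of Cd3d and faces it. The 250 bases before each start are printed 5′ to 3′ on the gene's own strand, with those of Cd247 on chromosome 1 for comparison. Windows are chr9:44980432-44980681 (minus strand) for Cd3g, chr9:44981536-44981785 (plus) for Cd3d, chr9:45009612-45009861 (minus) for Cd3e and chr1:165788431-165788680 (plus) for Cd247. Capitals mark matches, on either strand, to 5 words. They are AGGAAG for Ets factors, the word AGATAA for GATA factors and the word CTTTGA for TCF and LEF factors. The others are the word TGTGGT for Runx factors and the TATA box, TATAAA.
Cd3g: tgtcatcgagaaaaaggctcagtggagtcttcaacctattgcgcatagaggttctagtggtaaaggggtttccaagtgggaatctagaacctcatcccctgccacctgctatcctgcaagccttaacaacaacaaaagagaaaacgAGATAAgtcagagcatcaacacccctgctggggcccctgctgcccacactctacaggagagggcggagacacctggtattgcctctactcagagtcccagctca
Cd3d: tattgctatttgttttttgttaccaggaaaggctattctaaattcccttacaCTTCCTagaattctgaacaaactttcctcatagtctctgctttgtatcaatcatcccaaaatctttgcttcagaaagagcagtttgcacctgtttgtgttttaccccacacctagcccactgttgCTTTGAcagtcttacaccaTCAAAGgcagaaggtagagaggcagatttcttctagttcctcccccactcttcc
Cd3e: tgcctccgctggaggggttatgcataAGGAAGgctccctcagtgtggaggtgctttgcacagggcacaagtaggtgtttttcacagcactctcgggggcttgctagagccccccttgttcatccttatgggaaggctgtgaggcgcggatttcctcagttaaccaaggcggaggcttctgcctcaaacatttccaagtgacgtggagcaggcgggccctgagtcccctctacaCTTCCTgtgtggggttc
Cd247: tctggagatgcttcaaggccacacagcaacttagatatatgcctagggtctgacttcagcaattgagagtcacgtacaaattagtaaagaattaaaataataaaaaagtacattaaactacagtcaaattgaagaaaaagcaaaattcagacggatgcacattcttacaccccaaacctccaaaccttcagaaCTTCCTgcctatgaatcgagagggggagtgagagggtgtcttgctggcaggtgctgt
The Cd3d window holds 2 matches to CTTTGA, a word found in 13.8% of the 32851 windows of this length in the table, and the other 3 windows hold none. AGGAAG occurs once before Cd3d and before Cd247 and 2 times before Cd3e, against 29.5% of all windows with at least 1 match, and it is not among the letters of the Cd3g window. That window has the 1 match to AGATAA, a word in 9.99% of windows. TGTGGT (14.0% of windows) and TATAAA (12.4%) are in none of the 4. The E box CANNTG, not capitalised because 66.2% of windows hold it, occurs in all 4. These words overlap one another nowhere in the capitals shown, and a match is a description of letters only.

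CD3 delta, the product of Cd3d, pairs with epsilon in the complex. Cd3d (ENSMUSG00000032094) stood at 10113, 11029 and 13762 normalized counts in the scurfy libraries (1, 2 and 3, an order kept below) against 7118, 6838 and 6556 in the wild-type libraries. All scurfy libraries were above all wild-type ones, and the scurfy libraries were spread more widely, with a coefficient of variation of 16.3% against 4.11%. The means were 11635 ± 1898 and 6837 ± 281 (SD, n = 3 each), which differ by 0.76 on the log2 scale (95% interval 0.50 to 1.01, limma adjusted p = 0.00551). The call held in all 18 alternative settings, with an adjusted p of at most 0.0375 and a log2 fold change between 0.60 and 0.85. In the authors' deposited table the gene has a log2 fold change of 0.77 with an adjusted p of 5.59e-07.

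CD3 gamma, encoded by Cd3g (ENSMUSG00000002033), likewise pairs with epsilon. It measured 5040, 4640 and 6777 in scurfy and 4114, 4210 and 3486 in wild type. The groups did not overlap, and scurfy library 3 was far above the other libraries. That library also stood apart over the whole table, at 31.4 on the first principal component against 9.11 and 12.03 for scurfy libraries 1 and 2 and -24.4 to -12.6 for wild type. The log2 fold change was 0.46 (95% interval 0.18 to 0.75), with a limma adjusted p of 0.0648 that missed the threshold, and was 0.30 without scurfy library 3. Without library 3 of both groups Cd3g was at 0.22, Cd3e at 0.11 and Cd3d at 0.60. The authors' deposited table gives it an adjusted p of 0.0193, and DESeq2 on the recovered reads, the method whose columns that table has, gave the same 0.0193.

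CD3 epsilon, encoded by Cd3e (ENSMUSG00000032093), is shared by both CD3 pairs. Its values were 2545, 2867 and 3137 in scurfy and 2349, 2674 and 2081 in wild type. The groups overlapped, scurfy library 1 being below wild-type library 2. The log2 fold change was 0.27 (95% interval 0.02 to 0.52, limma adjusted p = 0.207). A gene of unknown function, Gm48720, overlaps Cd3e on the same strand, with a mean of 20.4 in wild type.

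Zeta, encoded by Cd247 (ENSMUSG00000005763, chromosome 1), carries more tyrosine motifs than any CD3 chain and joins the complex last. It was at 4013, 4509 and 4778 in scurfy and at 4724, 4270 and 5371 in wild type. The groups overlapped, and the highest value was in wild-type library 3. The log2 fold change was -0.11 (95% interval -0.35 to 0.13, limma adjusted p = 0.620), an interval that ends below the 0.50 at which that of Cd3d begins. Pou2f1, on the other strand, overlaps Cd247 with 624 normalized counts in wild type and 516 in scurfy. Reads of this pair cannot be fully told apart, since the use of strand in counting is unknown.

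Shares of the 4 chains in their summed normalized counts were compared without a test. Cd3d took 46.6%, 47.9% and 48.4% in scurfy and 38.9%, 38.0% and 37.5% in wild type. Cd247 took 18.5%, 19.6% and 16.8% in scurfy and 25.8%, 23.7% and 30.7% in wild type. The shares of these chains did not overlap between the groups, whereas those of Cd3g (22.4% ± 1.97 and 21.9% ± 1.80, SD, n = 3 each) and Cd3e (11.7% ± 0.71 and 13.2% ± 1.52) did. A share falls where another chain rises in the same sum, and Cd247 itself stood at -0.11. These shares are of reads and are compared here between groups only, not between chains.

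Ratios between chains within a library do not depend on how libraries are scaled, and 9 were examined. Cd3d stood at 2.52, 2.45 and 2.88 times Cd247 in scurfy and at 1.51, 1.60 and 1.22 times in wild type. The groups were widely apart, with a log2 difference of 0.86, or 1.82-fold (two-sided exact permutation p = 0.1, a floor set by 3 libraries a group, adjusted p = 0.18 over the 9 ratios). Cd3d to Cd3e was 3.97, 3.85 and 4.39 in scurfy and 3.03, 2.56 and 3.15 in wild type, a log2 difference of 0.49 with the same exact p and no overlap. For Cd3d to Cd3g, the neighbours with opposed starts, the ratios were 2.01, 2.38 and 2.03 in scurfy and 1.73, 1.62 and 1.88 in wild type. That log2 difference was 0.29, again without overlap and with an exact p of 0.1.

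Ratios of zeta to the epsilon and gamma chains depended on single libraries. Cd247 to Cd3e was 1.58, 1.57 and 1.52 in scurfy and 2.01, 1.60 and 2.58 in wild type, a log2 difference of -0.38 (exact permutation p = 0.1) in which wild-type library 2 lay just above the scurfy libraries. Dropping wild-type library 3 gave -0.20, dropping wild-type library 2 gave -0.55, and it was -0.24 with overlapping groups once the length trend described below was removed. Cd3g to Cd247 differed by 0.57 on the log2 scale (exact permutation p = 0.1), with the groups apart by a narrow gap between 1.03 in scurfy library 2 and 0.99 in wild-type library 2. With the length trend removed it was 0.32 and the groups overlapped. Cd3g to Cd3e overlapped, with means of 1.92 ± 0.28 in scurfy and 1.67 ± 0.09 in wild type (log2 difference 0.19, exact permutation p = 0.3, adjusted p = 0.3, n = 3 each). In all, 5 of the 9 ratios did not overlap between groups, where the same held for 38.9% of all 1669878 pairs of genes with a mean of at least 1000. With the length trend removed 4 did not overlap. These were the ratios of Cd3d to Cd247 (0.75), to Cd3e (0.51) and to Cd3g (0.44), which share Cd3d, and that of Cd8a to Cd8b1 (0.21). The share over all pairs was not computed with the length trend removed, so this count has no background beside it. No ratio could pass a threshold of 0.05 in this design.

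**Figure D2:**
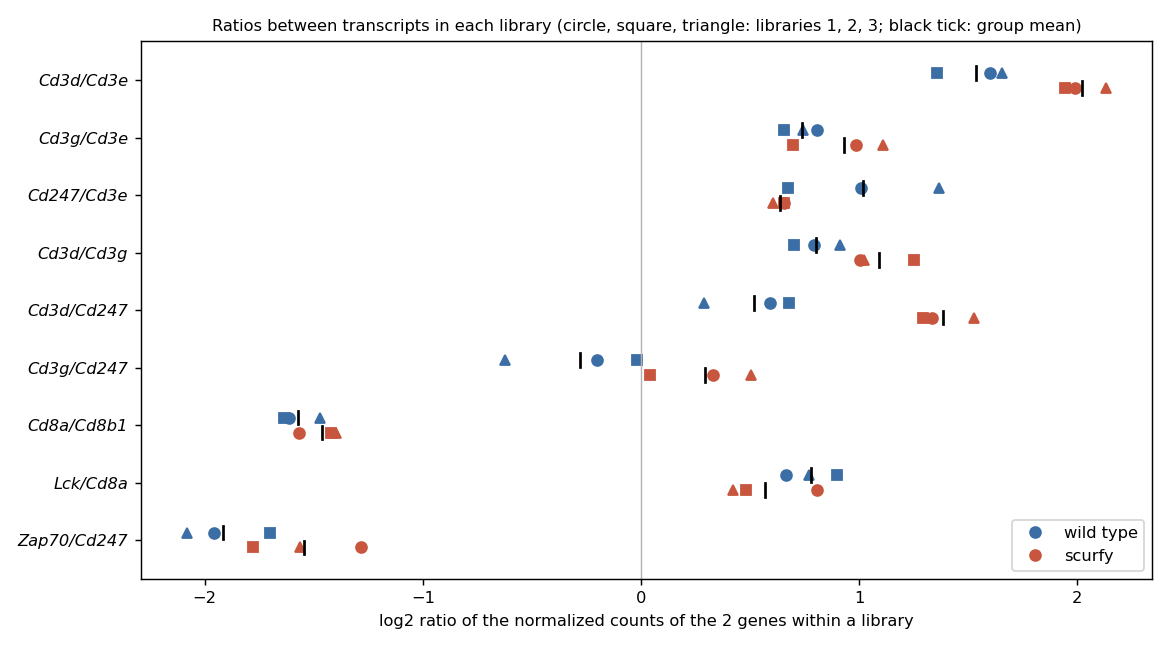
Log2 ratio of the normalized counts of the 2 named genes (horizontal axis) in each wild-type (blue) and scurfy (red) library, with group means as black ticks. The widest gap is for Cd3d to Cd247 (log2 difference 0.86), and the ratios of Cd8a to Cd8b1, Lck to Cd8a, Zap70 to Cd247 and Cd3g to Cd3e overlap between groups.

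The CD8 coreceptor is a pair of an alpha chain, which binds Lck, and a beta chain, which is restricted to conventional CD8 T cells. Cd8a (ENSMUSG00000053977, chromosome 6) was at 7196, 8013 and 8310 in scurfy and 7096, 6873 and 7725 in wild type. The groups overlapped (log2 fold change 0.12, 95% interval -0.11 to 0.34, limma adjusted p = 0.561), and on library size alone its value was -0.02. Cd8b1 (ENSMUSG00000053044, chromosome 6) was at 21364, 21423 and 21911 in scurfy and at 21728, 21344 and 21423 in wild type. Its lowest and highest libraries were only 2.63% of the mean apart, the narrowest spread among the 10 genes, where Cd3d spanned 78.0%. The log2 fold change of Cd8b1 was 0.00 (95% interval -0.21 to 0.22, limma adjusted p = 0.986), and -0.13 on library size alone. Cd8a to Cd8b1 was 0.34, 0.37 and 0.38 in scurfy and 0.33, 0.32 and 0.36 in wild type, a log2 difference of 0.11 (two-sided exact permutation p = 0.2).

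Lck, the kinase bound to CD8, and Zap70, the kinase recruited by phosphorylated CD3 and zeta, were not called. Lck (ENSMUSG00000000409, chromosome 4) was at 12593, 11174 and 11141 in scurfy and at 11260, 12808 and 13172 in wild type. The groups overlapped because library 1 of each lay on the other group's side (log2 fold change -0.09, 95% interval -0.33 to 0.14, limma adjusted p = 0.671). Zap70 (ENSMUSG00000026117, chromosome 1) was at 1648, 1314.4 and 1614.7 in scurfy and at 1214.9, 1314.6 and 1268.2 in wild type. Scurfy libraries 1 and 3 were above all wild-type libraries and scurfy library 2 was level with wild-type library 2 (log2 fold change 0.26, 95% interval 0.01 to 0.51, limma adjusted p = 0.211). Lck to Cd8a differed by -0.21 on the log2 scale (exact permutation p = 0.3) and Zap70 to Cd247 by 0.37 (exact permutation p = 0.2), both with overlapping groups.

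Cd2, the adhesion receptor, was the other gene called, and Cd5, a receptor whose level follows the strength of signalling through the antigen receptor, was not. Cd2 (ENSMUSG00000027863, chromosome 3) was at 4381, 4734 and 4978 in scurfy and at 3669, 3753 and 3074 in wild type. The groups did not overlap, and the log2 fold change was 0.43 (95% interval 0.20 to 0.66, limma adjusted p = 0.0376). The call ended whichever of the 6 libraries was dropped, at an adjusted p of 0.0532 to 0.129, the highest without wild-type library 3. Cd5 (ENSMUSG00000024669, chromosome 19) was at 2320, 2338 and 2608 in scurfy and at 2292, 2174 and 2024 in wild type. The groups did not overlap, by a gap between scurfy library 1 and wild-type library 1 that was smaller than the spread within either group (log2 fold change 0.16, 95% interval -0.06 to 0.38, limma adjusted p = 0.390).

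Levels of the genes were compared per kilobase of exon in the basic set of GENCODE M21. Reads were primed from the poly(A) tail and need not scale with exonic length, and the part of this was not tested. The order per kilobase therefore need not be that of transcript numbers. Without that division the wild-type means were highest for Cd8b1 (21498), Lck (12413), Cd8a (7231), Cd3d (6837) and Cd247 (4788). Below these came Cd3g (3937), Cd2 (3499), Cd3e (2368), Cd5 (2163) and Zap70 (1266). In wild type Cd8b1 was highest at 14496 ± 137 normalized counts per kilobase (SD, n = 3), followed by Lck at 5358 ± 438, Cd3d at 4228 ± 174, Cd3g at 3848 ± 384, Cd2 at 3034 ± 321 and Cd8a at 2309 ± 141. Cd3e at 1620 ± 203, Cd247 at 1051 ± 121, Cd5 at 692 ± 43.0 and Zap70 at 564 ± 22.2 were lowest. Only the neighbours Cd3d and Cd3g overlapped in their libraries. In scurfy Cd3d, at 7195 ± 1174 per kilobase, and Cd3g, at 5362 ± 1111, stood above Lck, at 5022 ± 358. Cd3d overlapped with Cd3g and Cd3g with Lck there, and the other 7 genes kept their places.

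Length ran with the differences between groups across the whole table. The median log2 fold change was 0.32 for exonic lengths under 1000 bases, 0.06 from 1000 to 2000 and -0.08 from 4000 up. Cd3d has 1617 bases, Cd3e 1462, Cd3g 1023, Cd8b1 1483 and Cd2 1153, so all 5 fall in the class whose median was 0.06, and 3.03% of that class was called higher. Cd247, at 4558 bases, is in the longest class. With a smooth length trend taken out of each library, Cd3d stood at 0.71 (limma adjusted p = 0.0156) and kept its call, and Cd2 stood at 0.28 (adjusted p = 0.161) and lost it. Cd3g was then at 0.28, Cd3e at 0.20 and Cd247 at -0.04.

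**Figure D3:**
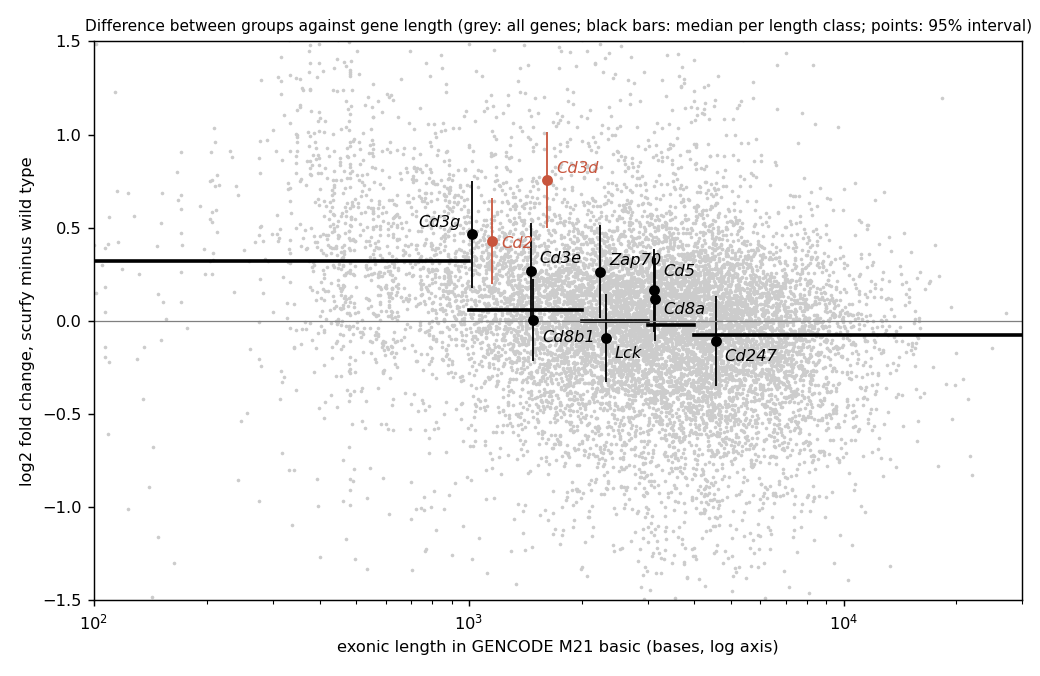
Log2 fold change, scurfy minus wild type (vertical axis, shown from -1.5 to 1.5), against exonic length in bases (log axis) for all genes (grey) and the 10 genes with 95% intervals, red where called higher by limma. Black bars are medians per length class, which go from 0.32 under 1000 bases to -0.08 over 4000, and Cd3d lies above the 0.06 of its own class.

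Around the receptor, the lists of other pathway genes gave calls in both directions. These lists too were chosen with earlier results known, so their shares of called genes describe them and support nothing. The chains of the receptor itself were not called: of 5 with a row (10 listed), Trac was at 0.16, Trbc2 at 0.11 and Trbc1 at -0.06, and Trdc, the constant region of the delta receptor, had the smallest p (log2 fold change 0.47, limma adjusted p = 0.0658). Trdc lies within the T cell receptor alpha locus and was at 1531, 1620 and 2244 in scurfy and at 1371, 1268 and 1199 in wild type, with no overlap. Of that list 1 gene had an unadjusted p under 0.05, edgeR and voom called none, and DESeq2 called 1 higher. With the length trend removed Trac was at -0.29 and Trbc2 at -0.19, both with the sign turned and not called, and Trbc1 was called lower at -0.46 (limma adjusted p = 0.0395). That removal used exonic lengths of 413 bases for Trac, 692 for Trbc2 and 512 for Trbc1. These are lengths of the constant segments and not of the whole rearranged transcripts, and removal at the whole length was not tested. These 3 genes are named after their values were seen.

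None of the 8 proximal kinases with a row was called, 1 having an unadjusted p under 0.05. That was Tec, a cytoplasmic tyrosine kinase, with a log2 fold change of 0.31 (limma adjusted p = 0.162). EdgeR, voom and DESeq2 called none of the 8. The list's median was -0.05, against 0.01 over all genes.

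Among 25 adaptors and effectors downstream of the kinases, 2 fell, none rose and 23 did not pass, where 2.35% of all genes fell. Rasgrp1, which couples diacylglycerol to Ras, averaged 1313 ± 266 in scurfy and 2064 ± 309 in wild type (SD, n = 3 per group) and fell by 0.66 on the log2 scale (limma adjusted p = 0.0268). Arhgef6, a guanine nucleotide exchange factor, fell from 571 ± 56.3 to 378 ± 62.1 (log2 fold change -0.60, limma adjusted p = 0.0440). With the length trend removed the values were -0.58 and -0.53 and neither was called (adjusted p = 0.0592 and 0.0837). They ended too without single libraries, 4 different ones for Rasgrp1 (up to 0.101 without wild-type library 2) and each of the 6 for Arhgef6 (up to 0.134 without wild-type library 2). The list's median was -0.10, and 7 genes had an unadjusted p under 0.05.

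Of 18 genes with a row in the list of negative regulators, 3 fell, none rose and 15 did not pass, against the same 2.35% of all genes lower. Ptprc encodes CD45, the phosphatase that sets how active Lck can be and whose alleles CD45.1 and CD45.2 mark the donors. CD45 can remove inhibitory as well as activating phosphates of Lck, so it is not a negative regulator only. Ptprc was at 5424, 5470 and 4694 in scurfy and at 7514, 8833 and 9736 in wild type. All scurfy libraries were below all wild-type ones (log2 fold change -0.74, limma adjusted p = 0.00551). Its call held without any one library (adjusted p up to 0.0249) and with the length trend removed (0.0156). Ptpn22, a phosphatase that acts on Lck and Zap70, fell from 3150 ± 512 to 2259 ± 106 (SD, n = 3 each), and Rasa1, which switches Ras off, from 278 ± 17.5 to 170 ± 28.8. Their log2 fold changes were -0.47 and -0.72 (limma adjusted p = 0.0414 and 0.0473), and -0.45 and -0.65 with the length trend removed (adjusted p = 0.0593 and 0.0837). Leaving out any 1 of 5 libraries ended the call of Ptpn22 (up to 0.139 without wild-type library 3) and any 1 of 6 that of Rasa1 (up to 0.144 without wild-type library 2).

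Among 13 partners and relatives of Cd2 and Cd5 with a row, 2 rose, none fell and 11 did not pass, where 2.12% of all genes rose. Cd48, the ligand of CD2 in the mouse, was at 1299, 1324 and 1531 in scurfy and at 1113, 830 and 862 in wild type, without overlap (log2 fold change 0.57, limma adjusted p = 0.0266). Cd7, a small receptor of T and natural killer cells, rose from 1707 ± 75.0 to 2455 ± 142 (SD, n = 3 each; log2 fold change 0.52, limma adjusted p = 0.0140). Cd6, the close relative of Cd5, was at 0.10 (adjusted p = 0.603). With the length trend removed Cd48 was at 0.44 (adjusted p = 0.0898) and Cd7 at 0.33 (0.0883), so neither kept its call. That of Cd7 also ended without scurfy library 2 (0.0609) or wild-type library 3, and that of Cd48 without any 1 of 4 libraries (up to 0.101 without wild-type library 2).

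The 18 transcription factors listed for the CD3 and CD8 loci that had a row gave 5 lower, none higher and 13 not passed, with a median of -0.29. Of all genes 2.35% were called lower and 4.47% in either direction. Ets1, an Ets factor abundant in resting T cells, was at 7305, 7052 and 5051 in scurfy and at 10308, 9750 and 10808 in wild type, with no overlap (log2 fold change -0.69, limma adjusted p = 0.0139). Ikzf1, the founding Ikaros factor, fell by 0.55 on the log2 scale, Cbfb, the partner of Runx factors, by 0.77, and Elf1, another Ets factor, by 0.43 (limma adjusted p = 0.0198, 0.0259 and 0.0351). The fifth was Tcf12, an E protein, at -0.60 (adjusted p = 0.0478), named after its values were seen. With the length trend removed 2 of these calls held, Ets1 (adjusted p = 0.0327) and Cbfb (0.0398), and Ikzf1 was at -0.46, Elf1 at -0.36 and Tcf12 at -0.49 without a call. The call of Ets1 ended without wild-type library 3 (0.0548), that of Ikzf1 without scurfy library 2 (0.0813) or wild-type library 1 or 2, and those of Cbfb, Tcf12 and Elf1 without any 1 of 4, 5 and 6 libraries.

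**Figure D4:**
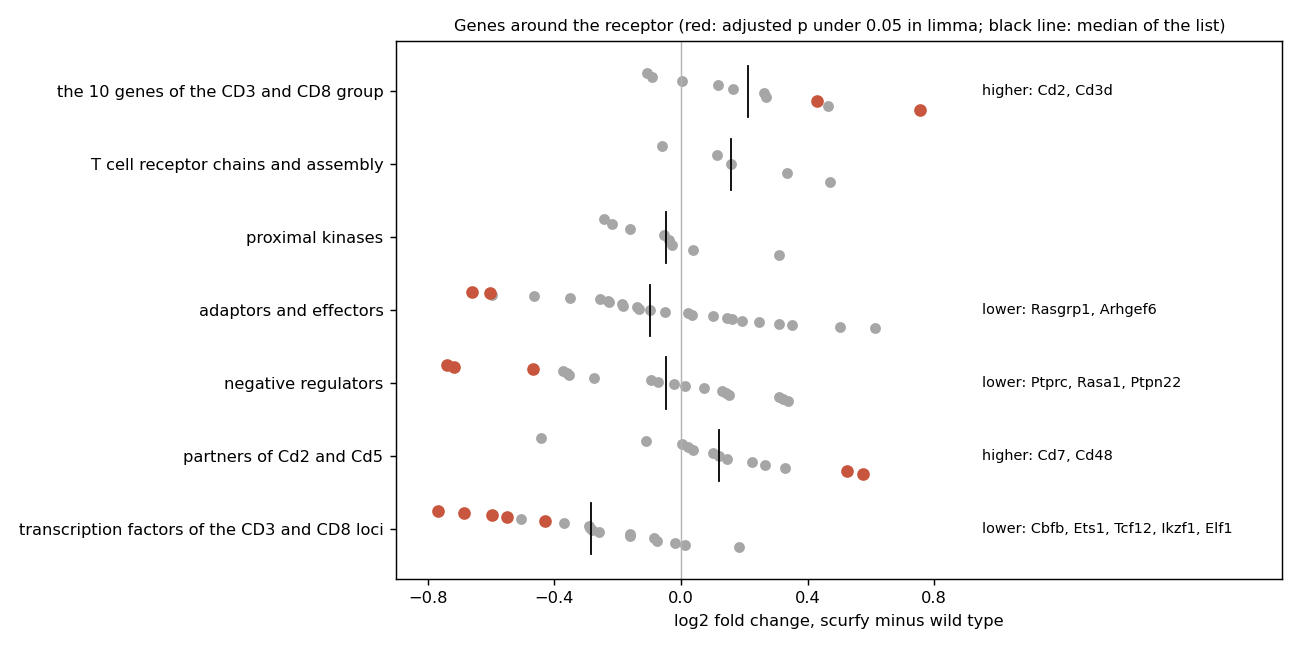
Log2 fold change, scurfy minus wild type (horizontal axis), of each gene of the CD3 and CD8 group and of 6 lists of related genes (rows), red where limma's adjusted p was under 0.05, with each list's median as a black line. The genes called are named at the right: those of the top row and of the Cd2 and Cd5 partners are higher, those of the adaptors, negative regulators and transcription factors lower.

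The genes whose values ran most like those of 3 members over the 6 libraries were found by Pearson's correlation of log2 values among 8521 other named genes with a mean of at least 50, as a description. For Cd3d these were the ribosomal protein pseudogene Rps18-ps3, Pttg1 and Atp5j2, with r of 0.998, 0.998 and 0.997. For Cd3e they were Med19, Prrc2c and Golgb1 (0.997, 0.996 and 0.987), and for Cd8a Cd2bp2, Camsap2 and Med31 (0.992, 0.986 and 0.978). With 6 libraries and 8521 candidates the highest values can come near 1 by selection. They did so here also for Cd3e and Cd8a, which were not called.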

How the data were processed

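Messenger RNA of purified CD8 T cells was primed with indexed oligo-dT for reverse transcription, amplified by in vitro transcription and sequenced on a NextSeq 500, per the labels' protocols. Trim Galore 0.4.4, STAR 2.6, featureCounts, edgeR and DESeq2 and the build NCBIM37 are named in the submitters' processing notes. The strand setting of the counting was not found in the sources. The 2 deposited tables are identical and name their columns after the 6 unstimulated libraries. Their values are a signal, each gene's read count over the library's size factor: of the deposited values 100% came out as whole reads within 0.01 read. The authors' log2 fold change, test score and p-value columns stand in the deposited table per the file headers.

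The edgeR test planned for raw counts was replaced, as planned for scaled values, by limma 3.58.1 (R 4.3.3) on log2(value + 1) over all genes, with trend and robust moderation and Benjamini-Hochberg adjustment at 0.05. Ratios were tested by two-sided exact permutation. The script was tested on simulated data. Alternatives were other pseudocounts, a filter at a mean of 50, other scalings, edgeR 4.0.16, DESeq2 1.42.0 and voom on recovered reads, a length trend removed, a replicate block, and each library left out. Exonic lengths came from GENCODE M21 (11571 IDs matched). A count of 3 reads is worth 1.45 to 3.99 normalized counts. The variance between libraries of a group was 7.65 to 39.2 times that of sampling alone. The members and lists were chosen with earlier results of these data known. Named were the members, every called gene of a list (of more than 4, the 4 with the smallest p, and where none was called the 1 with the smallest), and the 3 genes most like Cd3d, Cd3e and Cd8a.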

Additional observations from a re-analysis of the deposited data

How the results depend on the processing

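The number of the 10 genes called was 2 with limma and 1 (Cd3d) with the length trend removed, on library size only, with the replicate block, with block and length trend together, with both libraries numbered 3 left out, and with each single library left out (1 to 1). Block with length trend, and both libraries numbered 3 left out, were chosen after seeing the data. Over all genes the count of 518 was 891 with DESeq2, 930 on library size only, 249 with the length trend removed, 103 with block and length trend together, 290 without both libraries numbered 3, and 113 to 403 with 1 library left out. Cd8a changed sign on library size only (-0.0210). Cd8b1, at 0.00, changed sign on library size only (-0.132), with the length trend removed with and without the block (-0.0594), without both libraries numbered 3 (-0.00953) and in voom (-0.000204). With a library left out Cd8b1 ranged from -0.00701 to 0.0122. The cause was not tested. Counts in the lists of related genes moved as follows. For receptor chains 0 became 1 with DESeq2 and with the length trend removed, and 0 to 1 with a library left out. For adaptors 2 became 0 with the length trend removed, 1 with the block and 0 to 1 with a library left out. For negative regulators 3 became 5 with DESeq2, 1 with the length trend removed, 1 with the block and 1 to 2 with a library left out. For partners of Cd2 and Cd5 2 became 0 with the length trend removed and 0 to 2 with a library left out. For the transcription factors 5 became 2 with the length trend removed, 3 with the block and 1 to 2 with a library left out. The labels do not say whether the replicate numbers pair the samples. The deviations of same-numbered libraries correlated at -0.03, -0.07 and -0.15, and those of differently numbered ones at -0.12 to 0.16. With 3 libraries a group, centred within the group, these values cannot settle whether the samples are paired. With the block Cd2 had an adjusted p of 0.0688 and Cd3d of 0.0101, and 372 genes were called. The ratios kept their sign in the 90 alternative values, which the block cannot change and which leaving out a library cannot turn where the groups do not overlap. For the ratios, the length trend and the leaving out of both libraries numbered 3 were added after seeing the data. Depth was not the limit for the 10 genes, the lowest count being 914 reads. The number of libraries, 3 a group, limits the precision.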
